A study of Mus musculus with 2 samples.

Results

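The forkhead genes encode transcription factors that share a winged-helix DNA-binding domain, and 33 of the 18498 gene rows measured by RNA-seq in mouse tongue belonged to them. They were taken by symbol: Fox, a subfamily letter from a to s, and a number. The set held 32 protein-coding genes and 1 non-coding row, *Foxl2os*, the opposite-strand RNA at the *Foxl2* locus. RefSeq lists 44 coding mouse genes under the same rule, and the other 12 were not analysed here.

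Both tissues came from male C57BL/6J mice, 12 to 30 weeks old and kept on normal chow, and were compared to find genes expressed more strongly in taste tissue. The circumvallate papillae (CvP) carry the taste buds of the back of the tongue, and CvP tissue taken for RT-PCR in the same study included the epithelium around the buds. The second tissue was tongue epithelium without papillae (Epi). RNA of 20 or more mice was pooled for each tissue and made into 1 poly(A)+ library, so no value has a replicate and no test between tissues was possible.

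Forkhead factors bind DNA through the third helix of their domain, the recognition helix, and the subfamilies differ mainly outside it. FoxA proteins are pioneer factors that open chromatin in endoderm-derived organs. FoxO proteins leave the nucleus when insulin or growth factor signalling activates Akt, FoxM1 drives genes of mitosis, and several others are known from skin, hair, palate, thyroid, cilia or ionocytes. The tongue is covered by a stratified epithelium in which taste buds sit, and the back of the tongue derives in part from endoderm.

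The recognition helix is shown first because it is the part that forkhead proteins share, and because the members differ in its bases. A run of 30 bases coding for that helix was found in 31 of 31 members with a GENCODE M1 coding transcript (NCBI37/mm9), and the 31 runs were all distinct. Shown are *Foxc1*, its neighbours *Foxf2* and *Foxq1*, the abundant *Foxe1* and *Foxo3*, and *Foxm1*, which was higher in the CvP. In the lines below, capitals mark bases that differ from *Foxc1*, written 5′ to 3′ on the coding strand.
Foxc1: tggcagaacagcatacggcacaacctctcg
Foxf2: tggAagaacTCcGtGcgCcacaacctctcg
Foxq1: tggcGCaacTCcGtGcgCcacaacctctcg
Foxe1: tggcagaacagcatCcgCcacaacctcAcC
Foxm1: tggAagaacTCTatTcgTcacaacctTtcT
Foxo3: tggAagaacTCcatCcggcacaacctGtcC
The runs of *Foxc1*, *Foxf2* and *Foxq1* lie at chr13:31899440-31899469, chr13:31718378-31718407 and chr13:31651260-31651289, and that of *Foxe1* at chr4:46357360-46357389, all on the plus strand. All are coding exon sequence. The run of *Foxf2* differs from that of *Foxc1* at 6 bases, that of *Foxq1* at 7, that of *Foxe1* at 4, that of *Foxm1* at 8 and that of *Foxo3* at 6.

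The run is uninterrupted in 17 members but is broken by an intron in 14, among them *Foxm1*, *Foxo3* and *Foxp2* and every other member of the J, K, M, O and P subfamilies. Of the 14 with the intron, 13 reached an RPKM of 1 in at least one tissue, all but *Foxj1*. Of the 17 without it, 8 did: *Foxa1*, *Foxa2*, *Foxc1*, *Foxe1*, *Foxn1*, *Foxn2*, *Foxn3* and *Foxq1*. RPKM is the number of reads per kilobase of exon model, scaled to the mapped reads of the library, and 1 was used as the minimum for a gene to be counted. Of all 18498 rows, 12549 reached it in at least one tissue. The rule that chose the members used neither gene structure nor level, and a link between the intron and level was not tested.

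Forkhead RNA was present in both tissues at low to moderate levels. An RPKM of at least 1 was found for 20 of the 33 members (60.6%) in the CvP and for 19 (57.6%) in the Epi, of which 18 were shared. The corresponding shares of all rows were 66.7% and 57.2%. Of the 12549 rows that reached an RPKM of 1 in either tissue, 10363 did so in both, against 18 of 21 members. The overlap between tissues therefore does not set the forkhead genes apart. Levels above 10 RPKM were reached by 8 members (24.2%) in the CvP against 3 (9.09%) in the Epi, where the shares of all rows were 29.8% and 23.4%. The summed RPKM of all members came to 216 in the CvP against 149 in the Epi, and the 5 highest genes made up 49.0% and 51.0% of these sums.

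**Figure D1:**
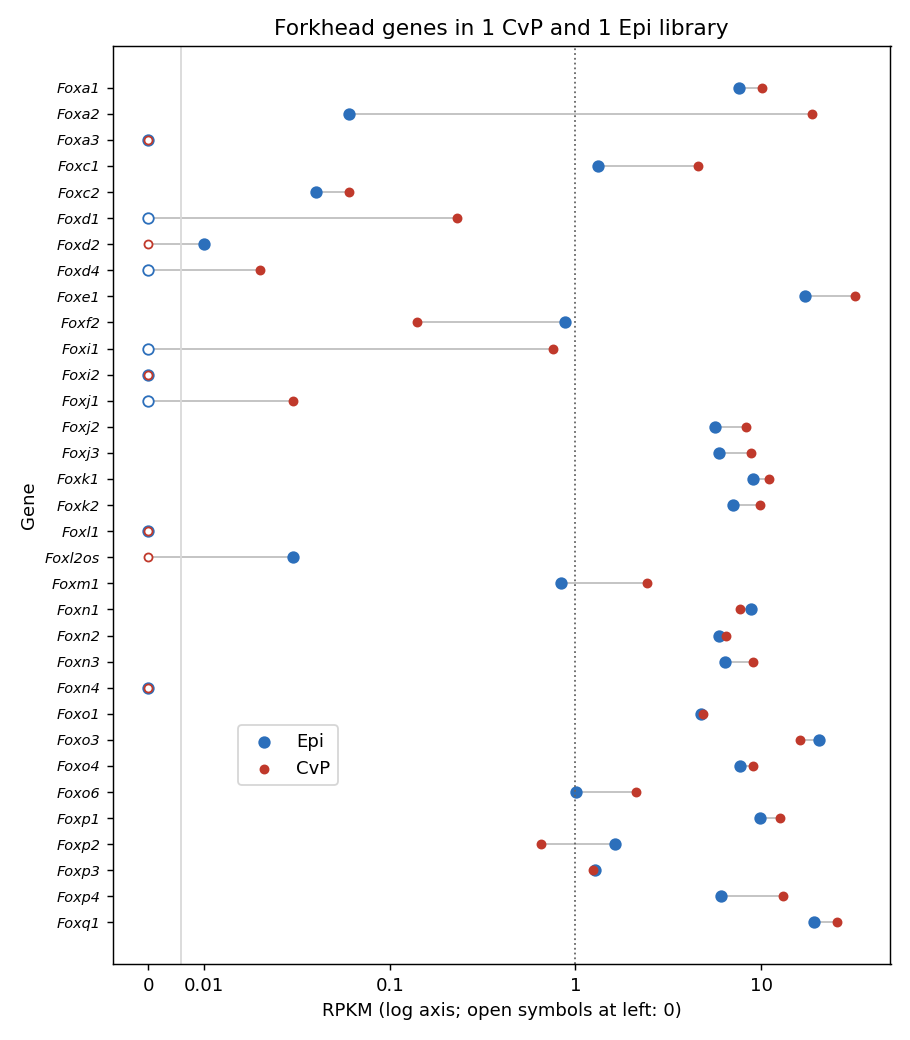
RPKM of each of the 33 forkhead rows in the CvP (red) and the Epi (blue) library on a log axis, with values of 0 drawn as open symbols at the left and the dotted line at RPKM 1; each point is 1 pooled library, so there are no error bars. Most pairs lie close together at 1 to 30 RPKM, *Foxa2* spans 18.84 and 0.06, and *Foxa3*, *Foxi2*, *Foxl1* and *Foxn4* are at 0 in both.

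With 1 library per tissue, members were described by a rule of size: a CvP/Epi ratio of at least 2, or of at most 0.5, among rows with RPKM of at least 1 in either library. Of the 21 members past that minimum, 5 (23.8%) had a ratio of at least 2: *Foxa2*, *Foxc1*, *Foxm1*, *Foxp4* and *Foxo6*. Over all 12549 rows past the minimum the share was 28.3%. One member, *Foxp2*, or 4.76%, had a ratio of at most 0.5, where all rows gave 3.76%. Both shares lay near those of all rows, so neither count sets the forkhead genes apart.

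Ratios carry a 95% exact (Clopper-Pearson) interval made from reads estimated from RPKM, gene length and depth. It covers counting error of these 2 libraries only, not the spread between mice. Depths worked out from the step size of low values were 28373213 mapped reads for the CvP and 27910118 for the Epi. At this depth counting error was small for most members, and the missing biological replicate limits every comparison. Ratios were shifted upward in general: over the 10363 rows with RPKM of at least 1 in both libraries, the median ratio was 1.31, or 0.39 on the log2 scale. Values relative to that median are given below where it matters.

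*Foxa2* had by far the largest ratio of the 21 members. Together with *Foxa1* it acts in gut, lung and liver development and in the floor plate. Its RPKM was 18.84 in the CvP against 0.06 in the Epi, a ratio of 314 with a counting interval of 109 to 1029. The Epi value rested on about 4 reads, against 1138 in the CvP, and rounding of the Epi RPKM to 2 decimals alone allows ratios between 290 and 343. The gene spans chr2:147868614-147872705 on the minus strand (mm9).

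*Foxa1*, the other member of the subfamily past the minimum, was at similar levels in both tissues, 10.12 RPKM in the CvP against 7.61 in the Epi. Its ratio of 1.33 (1.2 to 1.47) was close to the median of all rows. *Foxa2* was therefore 1.86 times the level of *Foxa1* in the CvP, and *Foxa1* was 127 times the level of *Foxa2* in the Epi, both compared per kilobase. The third member, *Foxa3*, known from liver, was at 0 in both libraries, where 3 reads would have given 0.0519 and 0.0528 RPKM. The FoxA subfamily made up 13.4% of all forkhead RPKM in the CvP but 5.15% in the Epi. In these bulk samples, fewer cells of a type and less RNA per cell cannot be told apart.

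*Foxa2* was the only member that had both an RPKM above 10 in the CvP and a ratio above 3, limits given in the study's results, and 435 rows of the deposited table (2.35%) did. Of 5516 rows with CvP RPKM above 10, 49 had a ratio at or above that of *Foxa2*, itself included.

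Genes known as partners or targets of FoxA factors were followed in a list of 15, of which 12 had a row and 4 reached RPKM 1. Of these 4, 3 (75%, against 28.3% of all rows) had a ratio of at least 2. *Shh*, the hedgehog ligand made by floor plate and by taste bud cells, had 3.61 RPKM in the CvP against 0.01 in the Epi, a ratio of 361 (47.8 to 10645) on 1 Epi read. *Shh* passed the minimum through the CvP alone. *Agr2*, a protein disulfide isomerase of mucus-secreting cells, had 12.94 and 2.08 RPKM, a ratio of 6.22 (4.53 to 8.78). *Muc5b*, a gel-forming mucin of salivary mucous glands, was the 1 member below 0.5, at 1.38 and 7.12 RPKM. The 8 rows below the minimum included *Alb* and *Ttr*, liver targets of FoxA factors, each at no more than 0.04 RPKM in either tissue (named after their values were seen).

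The upstream sequence of *Foxa2* and of *Foxi1* is shown because these are the members with the largest ratios among those above 0.5 RPKM in the CvP. RefSeq promoters (GRCm38.p6) were at hand for 22 member genes, 27 promoters in all, and only the 250 bases before each start were read. Letters in capitals are matches to CCAAT or GGGCGG on either strand. RefSeq gives *Foxa2* 3 starts, and the one farthest upstream is shown. Its stretch lies at chr2:148046970-148047219 and that of *Foxi1* at chr11:34208090-34208339, both on the minus strand and both written 5′ to 3′ toward the gene.
Foxa2: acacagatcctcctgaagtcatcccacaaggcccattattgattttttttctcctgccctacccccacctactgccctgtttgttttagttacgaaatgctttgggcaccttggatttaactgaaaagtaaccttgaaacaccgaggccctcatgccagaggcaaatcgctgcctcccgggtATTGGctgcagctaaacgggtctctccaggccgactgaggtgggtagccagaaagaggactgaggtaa
Foxi1: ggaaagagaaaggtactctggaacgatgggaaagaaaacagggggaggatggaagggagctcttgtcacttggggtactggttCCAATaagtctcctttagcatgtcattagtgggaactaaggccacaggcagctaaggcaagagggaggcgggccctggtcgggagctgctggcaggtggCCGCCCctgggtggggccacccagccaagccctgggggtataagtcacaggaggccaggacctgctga
The *Foxa2* stretch shown holds 1 CCAAT box on the opposite strand (ATTGG), while those before its other starts hold no CCAAT but 2 and 1 GGGCGG, and the *Foxi1* stretch holds 1 CCAAT box and 1 GGGCGG on the opposite strand. Over the 27 member promoters, CCAAT occurred in 13 (48.1%, against 33.8% of all 32851 promoters) and GGGCGG in 21 (77.8%, against 32.7%). Median GC content was 62.8% in member promoters and 52.4% in all. The core of the forkhead motif itself, TGTTTAC on either strand, occurred in 1 member promoter (3.70%), near the 3.17% of all promoters. That match was in *Foxa1*, on the opposite strand, with the motif in capitals in the line below.
Foxa1: tatactgctttGTAAACAaagtgagggcca
These are matches of letters and say nothing about binding.

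*Foxe1* and *Foxq1* were the most abundant members of the CvP and stood among the first 3 in the Epi. *Foxe1*, a factor of thyroid and palate development, had 32.06 RPKM in the CvP against 17.27 in the Epi, on 2551 and 1352 reads. Its ratio of 1.86 (1.74 to 1.98) fell just short of the limit of 2, where *Foxo6* at 2.11 and *Foxp4* at 2.14 lay just inside. The coordinates listed for it, chr4:46357066-46358181, span 1.12 kb, which is the length of its coding sequence. The listed length of 7.41 kb exceeds both that span and the 2.80 kb of its longest coding transcript.

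*Foxq1*, known for its part in hair shaft differentiation, had 25.45 RPKM in the CvP against 19.27 in the Epi. Its ratio of 1.32 (1.24 to 1.41) was that of a typical row. Exons of *Foxq1* share 1164 bases with the opposite-strand gene *A530084C06Rik*, and 40.0% of its 75-base windows occur in that transcript with at most 2 mismatches. The counting is not stated to have used strand, so reads of the 2 genes cannot be told apart.

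*Foxq1*, *Foxf2* and *Foxc1* lie near each other on chromosome 13 in the same orientation and differed in both level and ratio. *Foxq1* (chr13:31650039-31652843) is followed 67.6 kb further on by *Foxf2* (chr13:31717685-31723275), and *Foxc1* (chr13:31898515-31902504) starts 181 kb after *Foxf2*. One other measured gene, *1700018A04Rik*, lies within this stretch, at 0.2 RPKM in both tissues (named after its values were seen). *Foxc1*, needed for eye, skull and vessel development, had 4.54 RPKM in the CvP against 1.32 in the Epi, a ratio of 3.44 (2.86 to 4.16) on 514 and 147 reads. Relative to the median of all rows the ratio was 2.62.

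*Foxf2*, a factor of gut and palate mesenchyme, went the opposite way at low level, with 0.14 RPKM in the CvP against 0.88 in the Epi. The Epi value was 6.29 times that of the CvP (3.22 to 15.0) on 58 and 9 reads, but both RPKM were below the minimum of 1. *Foxc2*, the closest relative of *Foxc1*, had 0.06 and 0.04 RPKM. *Foxc1* and *Foxc2* share no more than 1.66% of their 75-base windows, and *Foxf2* shares 0.437% with another transcript.

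**Figure D2:**
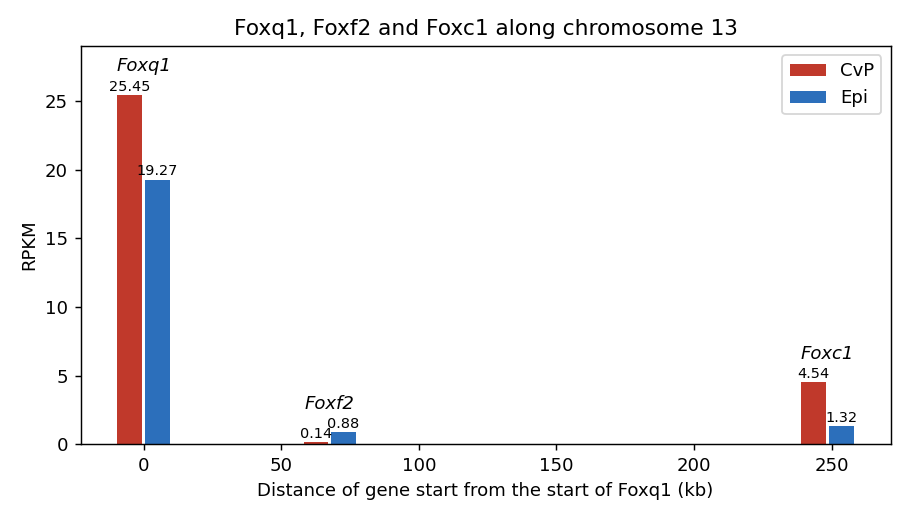
RPKM of *Foxq1*, *Foxf2* and *Foxc1* in the CvP (red bars) and Epi (blue bars) library, placed by the distance in kb of each gene start from that of *Foxq1*; 1 pooled library per bar, no error bars. *Foxc1* is 3.44 times higher in the CvP, *Foxq1* is close to even, and *Foxf2* is near 0 in the CvP.

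Lists of markers that go with these subfamilies were read beside them. Of 8 endothelial and lymphatic genes, 7 had a row and the 3 past the minimum all had a ratio of at least 2, against 28.3% of all rows. *Prox1* and *Tek* passed the minimum through the CvP alone. *Prox1*, a homeobox factor of lymphatic endothelium that is also made elsewhere, had 5.91 RPKM in the CvP against 0.02 in the Epi, a ratio of 296 (94.0 to 2820). *Tek*, the angiopoietin receptor, had 2.49 and 0.07 RPKM, and *Pdpn*, podoplanin, 29.09 and 2.09. The defining endothelial genes *Pecam1* and *Cdh5*, named after their values were seen, had at most 0.28 RPKM in either tissue.

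Of 10 mesenchyme genes, 5 passed the minimum. A ratio of at least 2 was found for 2 (40%, against 28.3% of all rows), both past the minimum through the CvP alone. For 1 the ratio was at most 0.5, as for 3.76% of all rows. *Gli1*, a hedgehog-responsive factor, had 19.14 RPKM in the CvP against 0.74 in the Epi, a ratio of 25.9 (20.5 to 32.8). *Pdgfra* had 1.30 and 0.07. *Dcn*, the matrix proteoglycan decorin, was lower in the CvP at 26.07 against 127.62 RPKM. The fibrillar collagen genes *Col1a1*, *Col1a2* and *Col3a1*, named after their values were seen, were at no more than 0.25 RPKM in either tissue. A list of 7 Schwann cell markers, kept for *Foxd3*, had 3 genes past the minimum. *Ngfr* (5.47 and 1.94 RPKM) had a ratio of at least 2 (33.3%, against 28.3% of all rows). *Erbb3* (40.16 and 27.01) and *Mbp* (10.29 and 8.94) did not.

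*Foxi1*, the factor that specifies proton-secreting ionocytes in kidney, inner ear and airway, was low but seen in the CvP alone. It had 0.76 RPKM in the CvP, on 51 reads, and 0 in the Epi, where 3 reads would have given 0.0457 RPKM. At that floor of 3 reads in the Epi library, the CvP value was 16.6-fold higher. The lower 95% counting limit of the ratio was 13.1. Its level stayed under the minimum of 1, so it is not among the 5 members counted as higher. No exon base of *Foxi1* (chr11:34104341-34108089) is shared with another gene.

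Of 13 ionocyte genes tied to *Foxi1*, 10 had a row, and 3 of the 4 past the minimum had a ratio of at least 2, against 28.3% of all rows; these 3 passed it through the CvP. *Cftr*, the chloride channel abundant in airway ionocytes, had 6.06 RPKM in the CvP, on 1102 reads, and 0 in the Epi. At the floor of 3 reads the CvP was 361-fold higher, with a lower 95% counting limit of 293. *Car2*, a carbonic anhydrase, had 13.98 and 0.04 RPKM, and *Atp6v1b1*, a proton pump subunit, had 1.07 and 0.06. The fourth, the pump subunit gene *Atp6v1c2*, was the most abundant of the list and lower in the CvP, at 37.2 RPKM against 67.64, a ratio of 0.550 (0.518 to 0.584), so that the list summed to 59.07 RPKM in the CvP against 67.97 in the Epi (named after its values were seen). The genes *Ascl3*, *Bsnd*, *Slc26a4* and *Atp6v0d2*, named after their values were seen, were at 0.09 RPKM or less in the CvP against 0 in the Epi.

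*Foxd1*, known from kidney stroma, had 0.23 RPKM in the CvP on 16 reads and 0 in the Epi. It was 5.27-fold higher in the CvP at the same floor, with a lower 95% counting limit of 3.79. *Foxj1*, the master factor of motile cilia, had 0.03 and 0 RPKM, or 2 and 0 reads. Of 16 genes of motile cilia and their Rfx regulators, 14 were under the minimum. The other two were the factors *Rfx3*, at 1.91 and 0.38 RPKM, and *Rfx2*, at 2.54 and 1.63.

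The remaining low members were *Foxd2*, *Foxd4* and *Foxl2os*, with at most 0.03 RPKM in either library, and *Foxi2*, *Foxl1* and *Foxn4*, which like *Foxa3* were at 0 in both. Of the 12 members below the minimum, 8 had 3 or fewer reads in both libraries, so no difference between tissues was detectable for them at this depth. *Foxl1* and *Foxc2* lie within 14.5 kb on chromosome 8, and both were near 0.

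*Foxm1*, which switches on genes of G2 phase and mitosis, was higher in the CvP. It had 2.43 RPKM in the CvP against 0.84 in the Epi, a ratio of 2.89 (2.31 to 3.65) on 303 and 103 reads, and 2.20 relative to the median of all rows. The gene lies at chr6:128313012-128325904 and shares 144 exon bases with the weakly expressed *4933413G19Rik* (0.20 and 0.06 RPKM).

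All 16 of a list of FoxM1 cell cycle targets were higher in the CvP, and 12 of them (75%, against 28.3% of all rows) had a ratio of at least 2. Among these 12, *Plk1*, *Cenpf* and *Bub1* passed the minimum through the CvP alone, and so did *Skp2*, which was not among them. *Cenpf*, *Bub1* and *Skp2* were named after their values were seen. The median difference of the 16 was 1.16 on the log2(RPKM + 0.1) scale, where all rows past the minimum had 0.50. *Nek2*, a centrosome kinase, had 5.29 RPKM in the CvP against 1.36 in the Epi, a ratio of 3.89 (3.19 to 4.80). *Plk1*, polo-like kinase, had 3 and 0.97, and *Cdc25b*, a phosphatase that starts mitosis, 34.25 and 11.48. Divided by the median ratio of all rows, 15 of the 16 stayed higher in the CvP and 5 kept a ratio of at least 2. The share of all rows after that division was not worked out, so these counts have no background.

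**Figure D3:**
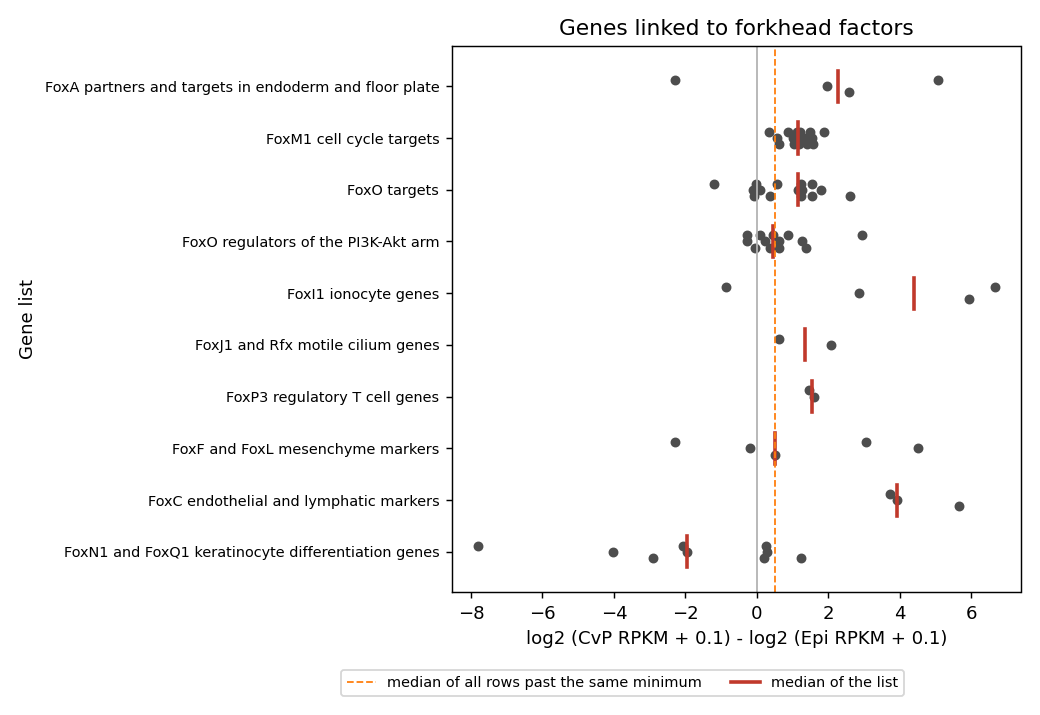
Difference of log2(RPKM + 0.1), CvP minus Epi, for each gene past the minimum in 10 lists tied to forkhead factors; 1 point per gene, red bars for list medians and the orange line for the median of all rows, 0.50. FoxM1 targets all lie above 0 with a median of 1.16, FoxO targets have a median of 1.16 with 1 gene below -1, and the keratinocyte list has its median at -1.95.

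The ratios of the 4 FoxO genes ran from 0.783 to 2.11. *Foxo3*, which restrains growth and promotes stress resistance, was the highest forkhead RNA of the Epi with 20.60 RPKM, against 16.14 in the CvP. Its ratio of 0.783 (0.747 to 0.821) rested on 3136 and 3937 reads, and became 0.597 relative to the median of all rows. *Foxo1*, the main FoxO factor of insulin action in liver, had 4.88 RPKM in the CvP against 4.74 in the Epi, a ratio of 1.03 whose interval of 0.930 to 1.14 held 1. Exons of *Foxo1* share 674 bases with the opposite-strand transcript *RP24-337A16.1*. With no strand stated for the counting, its reads cannot be assigned to *Foxo1* alone. *Foxo4* had 9.06 and 7.68 RPKM. *Foxo6*, known best from brain, had 2.13 and 1.01 RPKM, a ratio of 2.11 (1.58 to 2.81) on 158 and 74 reads, which became 1.61 relative to the median of all rows. The gene lies at chr4:119939683-119959866. Summed over the subfamily, FoxO RPKM was 32.21 in the CvP against 34.03 in the Epi.

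FoxO target genes had a median difference of 1.16 on the log2(RPKM + 0.1) scale. Of 18 listed, 17 had a row and 15 passed the minimum, with 8 (53.3%, against 28.3% of all rows) at a ratio of at least 2, 1 at most 0.5 and 6 between. *Bcl2l11*, which encodes the pro-apoptotic protein Bim, had 5.09 RPKM in the CvP against 0.75 in the Epi, a ratio of 6.79 (5.54 to 8.44). It passed the minimum through the CvP alone. *Txnip*, an inhibitor of glucose uptake, had 101 and 28.98 RPKM, and the ubiquitin ligase gene *Fbxo32* had 45.53 and 15.46. *Pdk4*, a brake on pyruvate oxidation, was the target below 0.5, at 2.81 and 6.60 RPKM (named after its values were seen). Divided by the median ratio of all rows, 4 of the 15 kept a ratio of at least 2, and the share of all rows after that division was not worked out.

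Of 14 genes of the PI3K-Akt arm that controls FoxO proteins, 13 passed the minimum. A ratio of at least 2 was found for 3 (23.1%, against 28.3% of all rows), and none had a ratio of at most 0.5. *Pik3r1*, the regulatory subunit of PI3-kinase, had 9.89 RPKM in the CvP against 3.73 in the Epi, and *Insr*, the insulin receptor, had 9.15 and 3.75. *Insr* stands in both lists. FoxO activity is set largely by phosphorylation, which RNA does not measure.

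The FoxP genes moved in different directions. *Foxp4*, expressed in lung and gut epithelium, had 13.06 RPKM in the CvP against 6.09 in the Epi, a ratio of 2.14 (1.96 to 2.35) on 1482 and 680 reads. Relative to the median of all rows it was 1.63, below the limit. *Foxp2*, best known for speech and motor circuits and also active in lung epithelium, was lower in the CvP at 0.65 RPKM against 1.64. The Epi level was 2.52 times that of the CvP (2.04 to 3.12) on 309 and 125 reads. Relative to the median of all rows, the CvP/Epi ratio of *Foxp2* was 0.302. *Foxp1*, a broadly expressed factor, had 12.57 and 9.83 RPKM, a ratio of 1.28 (1.2 to 1.36). *Foxp4* lies at chr17:48004082-48061581 and *Foxp2* at chr6:14851349-15391977, and neither shares exon bases with another gene.

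*Foxp3*, the factor of regulatory T cells, had 1.24 RPKM in the CvP against 1.28 in the Epi, a ratio of 0.969 whose interval of 0.759 to 1.24 held 1. Its exons share 590 bases with the opposite-strand gene *Ccdc22*, which stood at 8.38 and 7.15 RPKM, and 8.67% of its 75-base windows occur there. With no strand stated for the counting, the 135 and 137 reads cannot be assigned to *Foxp3* alone. Of 8 regulatory T cell genes, 2 reached the minimum: *Ikzf2*, at 5.54 and 1.75 RPKM, and *Tnfrsf18*, at 3.01 and 1.03. The T cell genes *Cd3e* and *Cd4*, named after their values were seen, had at most 0.15 RPKM in either tissue.

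*Foxn1*, the gene mutated in nude mice and needed for keratinocyte and thymic epithelial differentiation, was one of 4 members past the minimum with a ratio below 1. It had 7.68 RPKM in the CvP against 8.80 in the Epi, a ratio of 0.873 (0.787 to 0.967), or 0.665 relative to the median of all rows. *Foxn2* had 6.44 and 5.94 RPKM, a ratio of 1.08. Its interval of 0.986 to 1.19 held 1, but with reads from the listed length the interval was 1.003 to 1.17. *Foxn3*, a transcriptional repressor, had 9.01 and 6.38 RPKM.

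The 9 genes of keratinocyte differentiation, including those tied to *Foxn1* and *Foxq1*, all passed the minimum, and 5 had a ratio of at most 0.5 (3.76% of all rows did), with a median difference of -1.95 on the log2(RPKM + 0.1) scale. *Tchh*, trichohyalin of hair and filiform papillae, had 5.06 RPKM in the CvP against 1156 in the Epi. *Hoxc13*, a hair keratin regulator, was at 0 in the CvP against 1.54 in the Epi, and so passed the minimum through the Epi alone. At the floor of 3 reads it was 35.4-fold higher in the Epi, with a lower 95% counting limit of 28.4. *Krt10* had 47.16 and 354.91 RPKM. *Prkca*, a protein kinase C gene tied to *Foxn1*, was the 1 member with a ratio of at least 2, at 3.39 and 1.39 RPKM (named after its values were seen).

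*Foxk1*, *Foxk2*, *Foxj2* and *Foxj3* were present at moderate levels in both tissues. *Foxk1*, a repressor of autophagy genes, had 11.07 RPKM in the CvP against 9.02 in the Epi, a ratio of 1.23 (1.15 to 1.30), and was the fifth highest forkhead RNA of the Epi. Its relative *Foxk2* had 9.83 and 7.07. *Foxj2* had 8.29 and 5.64 RPKM and *Foxj3* 8.82 and 5.91, with ratios of 1.47 and 1.49. The subfamily sums were 20.9 and 16.09 RPKM for FoxK and 17.1 and 11.6 for FoxJ.

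**Figure D4:**
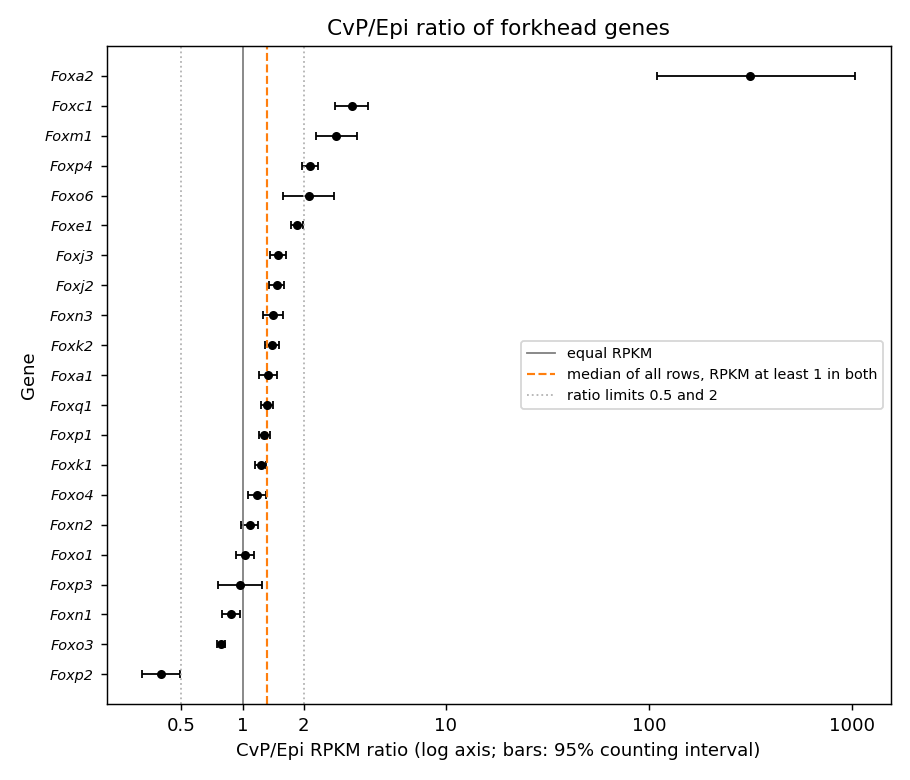
CvP/Epi ratio of RPKM (log axis) for the 21 forkhead genes past the minimum, with bars for the 95% counting interval of 1 library against 1; dotted lines mark 0.5 and 2, the grey line equal RPKM and the orange line the median of all rows, 1.31. *Foxa2* stands far to the right at 314, *Foxp2* alone lies below 0.5, and 15 genes lie between the limits.

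Set against all rows, the forkhead genes as a group followed the general shift. A ratio above 1 was found for 17 of 21 (81.0%), against 78.1% of all rows. The median difference on the log2(RPKM + 0.1) scale was 0.41 for the members, 0.50 for all rows and 0.60 for the 390 rows annotated as sequence-specific transcription factors. A ratio of at least 2 was found for 29.5% of those factor rows and a ratio of at most 0.5 for 3.85%. The counting interval lay above 1 for 15 members, below 1 for 3 and held 1 for 3. With reads from the listed length, that of *Foxn2* also lay above 1. Against the median ratio of all rows, 8 intervals lay above, 8 below and 5 held it. From the listed length, those of *Foxk2* and *Foxn3* also lay above it. The same splits were not worked out over all rows, so they describe the members only and do not set them apart.

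Of the 21 members, 15 lay between the limits of 0.5 and 2, and 12 of these had a ratio above 1 and 3 below. Relative to the median of all rows, 7 of the 15 lay above and 8 below: the ratios of *Foxk1*, *Foxp1*, *Foxo1*, *Foxo4* and *Foxn2* turned from above to below 1. Scaling both libraries to the same summed RPKM moved all ratios up by a factor of 1.21 and brought *Foxn1* and *Foxp3* above 1. In the range of geometric mean RPKM from 4 to 30, which held 15 members, their median ratio was 1.32, and that of the 6332 rows in the range was also 1.32, and 10 of the 15 lay between the quartiles of these rows, 1.05 and 1.698.

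**Figure D5:**
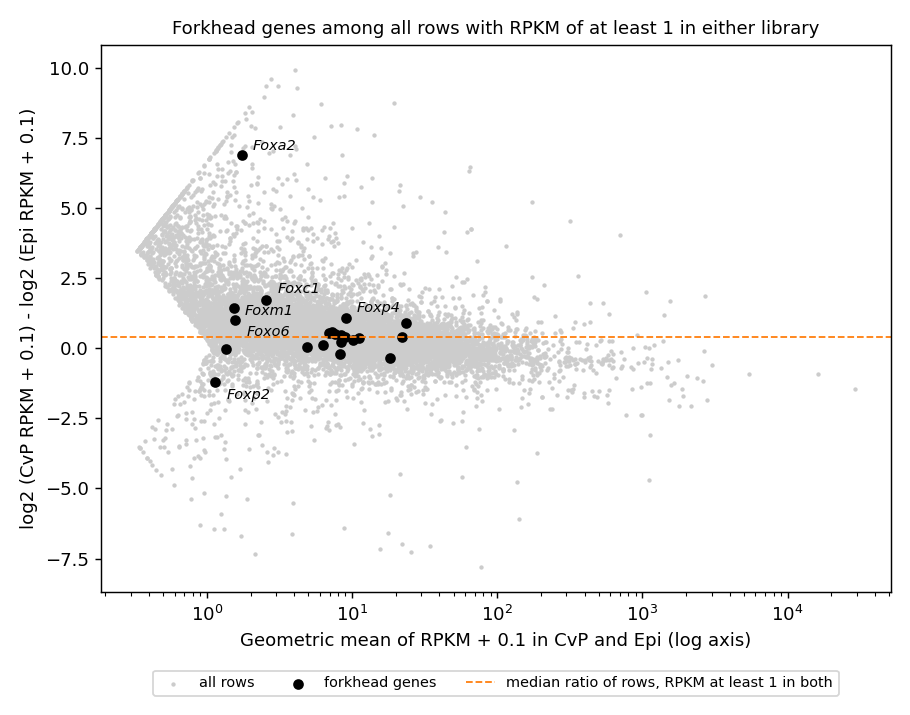
Difference of log2(RPKM + 0.1), CvP minus Epi, against the geometric mean of RPKM + 0.1 (log axis) for all rows with RPKM of at least 1 in either library (grey) and for the 21 forkhead genes (black); the dashed line marks the median ratio of rows at RPKM 1 or more in both, 0.39 on the log2 scale. *Foxa2* lies near the upper edge of the cloud, and most forkhead genes lie close to the dashed line.

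The tissues themselves were checked by markers. All 12 taste cell genes had a ratio of at least 2, their summed RPKM being 543 in the CvP against 9.67 in the Epi; *Gnat3*, gustducin, had 127 and 0.03, the channel *Trpm5* 37.80 and 0.01, and *Plcb2* 70.01 and 0.12. Tongue epithelium markers had 6 of 10 at a ratio of at most 0.5, among them *Krt76* (217 and 5649 RPKM) and *Krt84* (2.88 and 396), whereas *Sox2*, shared by taste progenitors, had 81.98 and 19.11. Other cell types also differed between the libraries. Salivary gland genes summed to 11.2 RPKM in the CvP against 421 in the Epi, with *Lipf* at 1.96 and 313, *Amy1* at 0.85 and 80.48, *Dcpp1* at 0 and 7.84, and 5 of 7 past the minimum at a ratio of at most 0.5. *Lipf* and *Amy1* make up most of that sum, and in the same list *Aqp5* was higher in the CvP (6.09 and 0.69) and *Muc19* even (1.32 and 1.31), both named after their values were seen. Skeletal muscle genes summed to 3.73 and 51.5, with 7 of 7 at most 0.5, including *Acta1* (0.86 and 12.88), *Ckm* (0.67 and 10.56) and *Myh4* (0.24 and 5.21). Immune cell genes summed to 184 and 17.2, with 6 of 6 at least 2, including *Lyz2* (132 and 0.43), *C1qa* (5.79 and 0.43) and *Itgam* (3.58 and 0.80). *Lyz2* makes up most of the CvP sum. These 3 passed the minimum through the CvP alone, as did *Ptprc* (named after its values were seen) and most taste cell genes. The muscle genes, *Amy1* and *Dcpp1* passed it through the Epi alone. Of all rows past the minimum, 28.3% had a ratio of at least 2 and 3.76% of at most 0.5. These lists move with the tissue in the same direction as *Foxa2*, *Foxc1*, *Foxm1*, *Foxo6* and *Foxp4*, or as *Foxp2* and *Foxf2*, and their part in the forkhead values was not tested.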

How the data were processed

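RNA of the CvP and of the Epi was pooled from at least 20 mice each, poly(A)+ libraries were made with a TruSeq RNA kit and sequenced as 75-base single reads on a Genome Analyzer IIx. The authors mapped reads to NCBI37/mm9 with Bowtie 0.12.7 and deposited RPKM per gene made with ERANGE, whose options, strand included, are not given in the sources used here. RPKM is not a count, and with 1 library per tissue no test was run. The deposited table also lists a gene length in kb. Tissue groups came from the labels.

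Ratios of RPKM were taken as deposited. Log2 values used a pseudocount of 0.1. Depth was worked out from the smallest step of the 163 rows listed at 0.1 kb, and 97.3% (CvP) and 98.4% (Epi) of values in rows up to 0.5 kb were then whole reads. Each gene's reads were worked out from its RPKM and a length, either the listed one or that of its longest GENCODE M1 coding transcript, whichever was smaller, since the listed length was more than 1.2 times that transcript for 15 of 31 members. For these 15, the listed length gave more reads and narrower intervals than those given with the ratios. Exact 95% intervals and a floor of 3 reads per library cover counting error only, and reads are not unique molecules. The computation of depth and intervals was tested on simulated data. Python 3.11.15, numpy 2.4.6, pandas 2.3.3, scipy 1.17.1 and matplotlib 3.10.9 were used.

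Every member with RPKM of at least 1 in either library was named, others where the lower limit of the ratio was above 2, and of each of 16 gene lists the 3 genes past the minimum with the largest log2 difference. *Foxf2*, the other low members and genes marked so in the text were added after their values were seen. Some genes and sequences are not reported here. The members and lists were chosen with earlier results of these data known. Alternatives covered the limits, the minimum, the pseudocount, scaling and the length behind the reads, the last and the count without *Foxp3* and *Foxq1* being chosen after seeing the data.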

Additional observations from a re-analysis of the deposited data

How the results depend on the processing

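No paired analysis was possible because there is 1 library for either tissue, and no replicate could be left out. The count of 5 members higher in the CvP became 2 at a ratio limit of 3, 9 with no minimum RPKM, 3 at RPKM of at least 3, 2 with a pseudocount of 1, 3 when ratios were divided by the median ratio and 15 when a counting interval that excludes 1 was used. It stayed between 5 and 7 under the other settings. For these alternatives the share of all rows was not worked out. Leaving out *Foxp3* and *Foxq1* could not change it, since neither was among the 5. The count of 1 lower member became 0 at a ratio limit of 3, at RPKM of at least 3 and with a pseudocount of 1, 2 at RPKM of at least 0.5 and with both libraries scaled to the same sum (this also raised every level, so that more genes passed the minimum), 4 with no minimum and 3 by interval. The median log2 difference of 0.41 became 0.0139 when ratios were divided by the median ratio. The 1 member above 10 RPKM in the CvP with a ratio above 3 became 2 with CvP RPKM above 3 or a ratio above 2. Members at RPKM of at least 1 ranged from 17 to 25 in the CvP and 15 to 22 in the Epi over other minimums. For *Foxa2* the ratio was 118 with a pseudocount of 0.1, 18.7 with 1, 239 relative to the median and 379 at equal sums; reads from the listed length narrowed its interval to 169 to 649. Of 85 values of the 21 named members under alternatives, 46 stayed within their interval and 39 left it. The single pooled library limits every value, and counting error adds to it for *Foxa2* in the Epi and for members under 1 RPKM.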
